A study of Oryza sativa with 4 samples.

Results

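The protease inhibitor genes of rice (Oryza sativa) are described here in whole 3-week-old plants of OsC3H10OX and of NT. A gene was taken as a member when the annotation in the deposited table held the words proteinase inhibitor, protease inhibitor, trypsin inhibitor, Bowman-Birk, cystatin, Kunitz, serpin or subtilisin-chymotrypsin inhibitor, without the words lipid transfer. The words were matched by 38 transcripts of 34 genes, among 37972 transcripts of 31414 genes in the table, and the matching transcript of highest mean FPKM (fragments scaled to transcript length and to the number of mapped fragments) stood for each gene. OsC3H10OX plants carry PGD1::OsTZF8, the CCCH tandem zinc finger gene OsC3H10 (also named OsTZF8) under the rice PGD1 promoter, which is active in the whole plant. All OsC3H10OX libraries came from the T4 generation of line 20, so that a single line stands for the genotype. NT is the non-transgenic control. All plants were of cv. Nakdong, grew in soil pots and received no treatment. Each group had 2 libraries. The study's methods call them biological replicates, and the sources used here do not say how many plants went into each, so p-values measure the spread between these libraries.

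Protease inhibitors are small proteins that block proteolytic enzymes, most of them by offering a loop that sits in the active site as a substrate would. Bowman-Birk, Kunitz, potato I, potato II and Kazal type inhibitors act on serine proteases such as trypsin, chymotrypsin and subtilisin, cystatins act on papain-type cysteine proteases, and serpins trap their target after it has cut them. In plants they are known from seeds, where they guard the stored protein, and from leaves after wounding or insect feeding, and cystatins also restrain the plant's own cysteine proteases.

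FPKM reached 1 for 29992 and 29644 transcripts in the OsC3H10OX libraries and for 29672 and 29947 in the NT libraries. Low FPKM values lay on even steps, from which 1 FPKM stood for between 37.5 and 56.7 fragments per kilobase. Inferred fragment numbers of the tested members ran between 9 (Os01g0915401) and 18083 (Os01g0803200) per library, and untested members rested on as few as 4 fragments, so the lowest levels carry a large counting error. OsC3H10 itself was not analysed here, so the labels were not checked against the overexpressed gene. Leaf markers were present, with a summed FPKM of 10098 and 11253 in OsC3H10OX and of 8645 and 8485 in NT (15 genes, none under 1 FPKM in every library). Root markers summed to 310.4 and 309.9 FPKM in OsC3H10OX and to 441.7 and 440.1 FPKM in NT (4 genes). Seed storage genes summed to 174.9 and 168.7 FPKM in OsC3H10OX and to 210.9 and 257.9 FPKM in NT (11 genes, of which 4 were under 1 FPKM in every library). None of these marker genes passed the limma test, with 4 leaf, 2 root and 2 seed genes at an unadjusted p under 0.05, and their part in the results on the inhibitors was not tested. In whole plants, fewer cells of a type and less RNA per cell cannot be told apart.

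Inhibitor transcripts were abundant in both genotypes. Summed over the 34 genes with all their matching transcripts, FPKM was 3173 and 2132 in the OsC3H10OX libraries and 1753.5 and 1849 in the NT libraries. Cystatins made up the largest share, 45.9% of the OsC3H10OX sum and 55.2% of the NT sum, with 1297 and 1141 FPKM in OsC3H10OX and 958 and 1030 FPKM in NT. Bowman-Birk inhibitors followed with 28.7% of the OsC3H10OX sum and 25.2% of the NT sum. The potato inhibitor families were minor in NT and less so in OsC3H10OX. Potato inhibitor II made up 10.2% of the sum in OsC3H10OX and 3.01% in NT, and potato inhibitor I made up 5.12% in OsC3H10OX and 1.06% in NT. Family sums of the first OsC3H10OX library were above those of the second for the Bowman-Birk, potato I and potato II families. The same held for all other families except Kunitz and the gene without a family. In the Bowman-Birk family the second OsC3H10OX library, at 476 FPKM, was close to the NT libraries, at 448 and 460.3 FPKM.

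**Figure D1:**
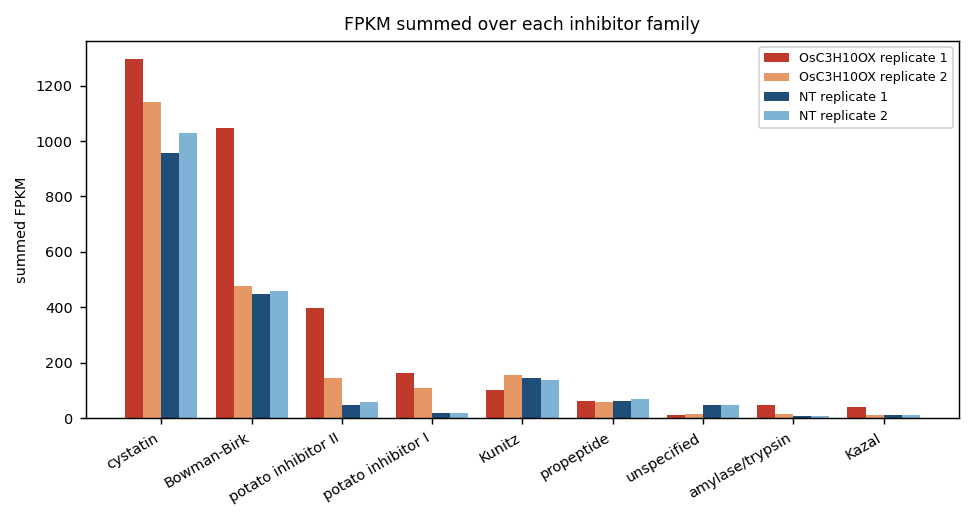
Summed FPKM (vertical axis, from 0) of each inhibitor family in the 4 libraries, 1 bar per library with no error bars. Bowman-Birk inhibitors stand at 1048 FPKM in OsC3H10OX replicate 1 and between 448 and 476 FPKM in the other libraries, and both OsC3H10OX bars of the potato families stand above both NT bars.

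Of the 34 genes, 26 reached 1 FPKM in 2 or more libraries (in practice in 3 or more) and were tested with limma on the deposited log2 values, with Benjamini-Hochberg adjustment over all 30449 transcripts tested. The log2 values look like log2(FPKM + 1) after quantile normalization, a scale that understates the change of low genes. At an adjusted p under 0.05, 1 member was higher in OsC3H10OX and 2 were lower, 3 of 26 in all, against 0.647% of all tested transcripts called higher, 0.841% called lower and 1.49% called either way. A change of at least 2-fold upwards was seen for 8 members and one of at least 2-fold downwards for 2, against 2.15% and 1.88% of all transcripts in these directions. The members 2-fold higher belong by their annotation to the Bowman-Birk (4), potato I (2), potato II (1) and amylase/trypsin (1) families. Both OsC3H10OX libraries lay above both NT libraries for 10 members and below both for 8, where 25.1% and 28.1% of all tested transcripts did so. An unadjusted p under 0.05 was reached by 8 members in the higher direction and 2 in the lower, against 8.35% and 9.36% of all tested transcripts. The median log2 fold change of the tested members was 0.191 (range -1.68 to 3.37), beside 0.002 for all tested transcripts. This median was 0.094 without a filter on low values (34 genes) and 0.352 with a minimum of 5 FPKM (22 genes). With a library left out it was 0.036 without OsC3H10OX replicate 1, where 13 members were above 0 and 13 below, 0.447 without OsC3H10OX replicate 2, 0.084 without NT replicate 1 and 0.297 without NT replicate 2. With 2 libraries against 2, an exact permutation test cannot give a two-sided p below 0.333, so it was not used for single genes.

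**Figure D2:**
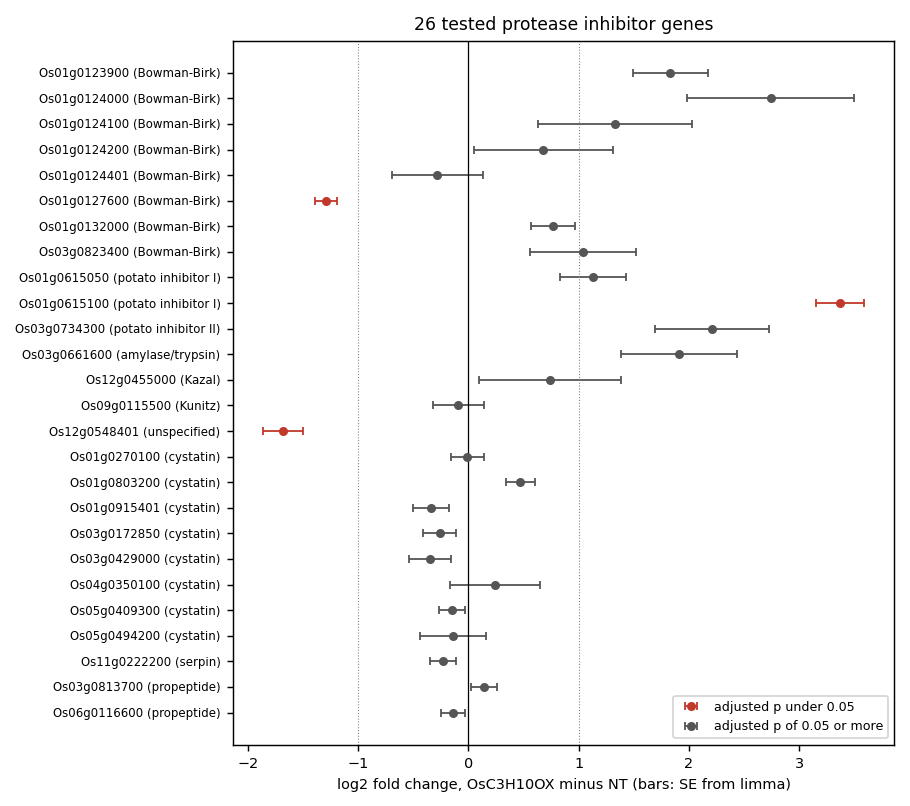
Log2 fold change of OsC3H10OX over NT (horizontal axis) with its SE from limma for the 26 tested members, grouped by family, with red points for an adjusted p under 0.05 and dotted lines at 2-fold. Os01g0615100 at 3.37 is the red point to the right, Os01g0127600 at -1.29 and Os12g0548401 at -1.68 are those to the left, and the cystatins lie between -0.35 and 0.47.

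The member that rose was a potato inhibitor I gene, and its neighbour and the potato inhibitor II gene were also at least 2-fold higher in OsC3H10OX without passing the test. Os01g0615100, annotated as a subtilisin/chymotrypsin-like inhibitor (IRGSP-1.0, chromosome 1, 24392840 to 24393423), had 137 and 93.6 FPKM in OsC3H10OX and 9.84 and 11.0 FPKM in NT. Every OsC3H10OX library was far above every NT library. Mean levels were 115 ± 30.7 FPKM in OsC3H10OX and 10.4 ± 0.823 FPKM in NT (SD, n = 2 each), a ratio of 11.1. The log2 fold change was 3.37 (SE 0.22, limma adjusted p = 0.0165). At the inferred depth these values stand for about 1712 and 1095 fragments in OsC3H10OX and 111 and 197 in NT, so counting error was small beside the difference. The transcript is short, at 486 nt. The neighbouring gene Os01g0615050, 1.1 kb away and of the same family, had 26.5 and 14.5 FPKM in OsC3H10OX and 8.48 and 8.76 FPKM in NT. Its groups did not overlap, but the log2 fold change of 1.13 (SE 0.30) did not pass the test (limma adjusted p = 0.193). Reads that fit both neighbours could have been divided between them in the authors' estimates.

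Os03g0734300, annotated as a type II proteinase inhibitor and the only potato inhibitor II member (chromosome 3, 30078327 to 30078899), had 397 and 145 FPKM in OsC3H10OX and 49.4 and 59.2 FPKM in NT. Both OsC3H10OX libraries were higher than both NT libraries, with the first at 2.73 times the second. The log2 fold change was 2.21 (SE 0.52, limma adjusted p = 0.166). Os03g0661600, annotated as an alpha-amylase/trypsin inhibitor and antifungal protein, had 46.7 and 15.5 FPKM in OsC3H10OX and 6.53 and 6.69 FPKM in NT. The study lists this gene as pathogenesis-related, among genes more than 2-fold higher in OsC3H10OX. Its place among the inhibitors therefore rests on the annotation words alone. In the limma fit, the log2 fold change of Os03g0661600, 1.91 (SE 0.53), was likewise not called (limma adjusted p = 0.207).

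**Figure D3:**
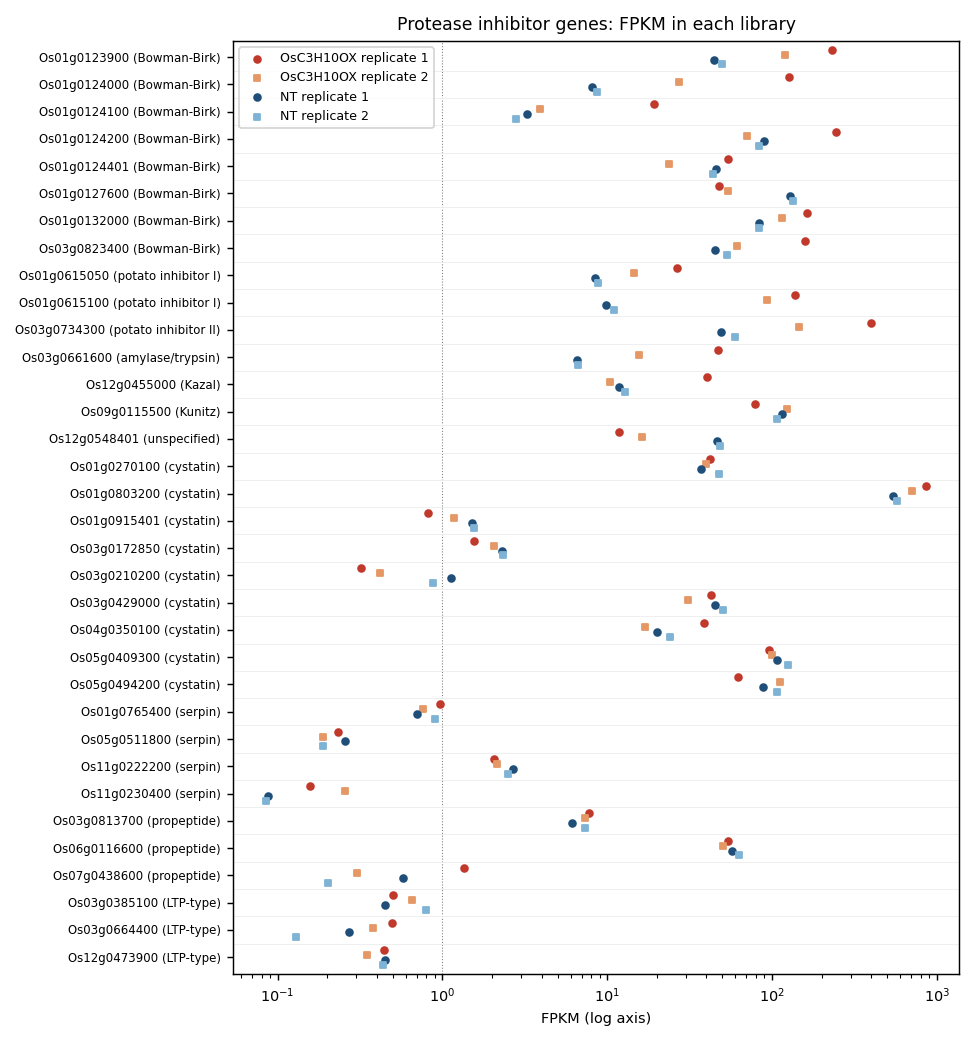
FPKM (horizontal axis, log scale) of each of the 34 members in OsC3H10OX replicates 1 and 2 and NT replicates 1 and 2, by family, with a dotted line at 1 FPKM. Oryzacystatin-I (Os01g0803200) is highest at 865 and 705 FPKM in OsC3H10OX and 542 and 571 FPKM in NT, the NT points of the tested genes lie close together (ratios of 0.778 to 1.16), and the OsC3H10OX points of many Bowman-Birk and potato type genes lie apart.

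Bowman-Birk inhibitors, which in legumes and cereals block trypsin or chymotrypsin, were by number of genes the family with the most 2-fold differences. At least 2-fold higher were 4 of 8 members and at least 2-fold lower was 1, beside 2.15% and 1.88% of all tested transcripts. Only the lower one passed the test. By share the family was not first, as both potato inhibitor I genes were 2-fold higher. The median log2 fold change of the 8 genes was 0.907. Of the 8 members, 5 are neighbours on chromosome 1 within 16.5 kb, with no listed gene between them and gaps of 1.6 to 5.0 kb. Os01g0123900 starts this row (1338240 to 1339098) with 231 and 119.9 FPKM in OsC3H10OX and 44.6 and 49.98 FPKM in NT, a log2 fold change of 1.83 (SE 0.34, limma adjusted p = 0.117). Next, Os01g0124000 (1341367 to 1342277) had 128 and 27.3 FPKM in OsC3H10OX and 8.03 and 8.64 FPKM in NT, a log2 fold change of 2.74 (SE 0.76, limma adjusted p = 0.206). The groups did not overlap in these genes, while the OsC3H10OX libraries differed from each other by ratios of 1.93 and 4.67. Os01g0124100 (1345117 to 1346047) had 19.3 and 3.91 FPKM in OsC3H10OX and 3.24 and 2.79 FPKM in NT, so the second OsC3H10OX library was little above NT (log2 fold change 1.33, SE 0.70, limma adjusted p = 0.398). The last 2 genes of the row overlapped between genotypes. Os01g0124200 had 246 and 70.9 FPKM in OsC3H10OX and 89.6 and 83.6 FPKM in NT, with the OsC3H10OX libraries on either side of NT. Os01g0124401 had 53.8 and 23.6 FPKM in OsC3H10OX and 45.6 and 44.0 FPKM in NT, again on either side. Read along the row, the log2 fold changes were 1.83, 2.74, 1.33, 0.68 and -0.28, and in all 5 genes the first OsC3H10OX library had the higher level. These genes are related in sequence by their annotation, and reads shared between them could have moved between their FPKM values.

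**Figure D4:**
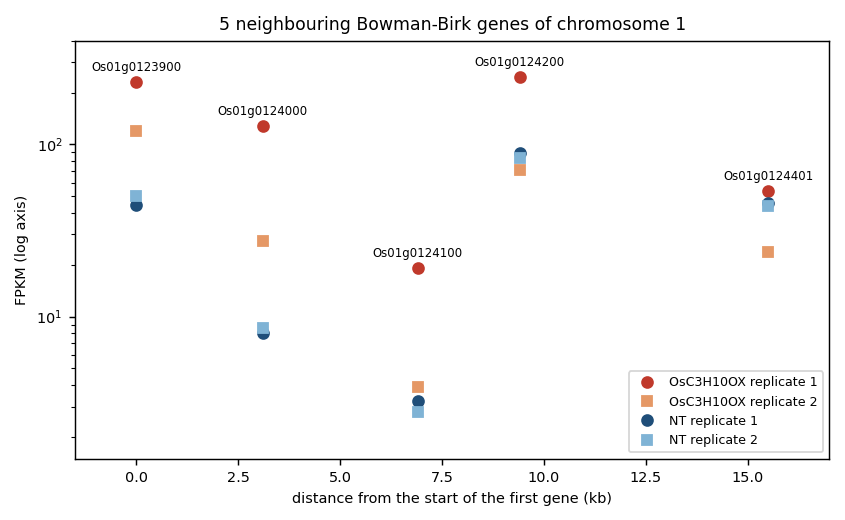
FPKM (vertical axis, log scale) of the 5 neighbouring Bowman-Birk genes of chromosome 1 in the 4 libraries, plotted at the distance of each gene's start from the start of the first gene (kb). Both OsC3H10OX points of the first 3 genes lie above both NT points, whereas for the last 2 genes OsC3H10OX replicate 2 lies below NT.

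The other Bowman-Birk genes lay on different sides of NT. Os01g0127600, annotated as similar to inhibitor D-II and located 177.6 kb from the start of the row (1515836 to 1516714), was the family member that fell. It had 47.7 and 54.1 FPKM in OsC3H10OX and 129 and 134 FPKM in NT, so that all OsC3H10OX values were well under the NT values and replicates were close in both genotypes. Its mean was 50.9 ± 4.52 FPKM in OsC3H10OX and 131 ± 3.68 FPKM in NT (SD, n = 2 each), with NT 2.58 times OsC3H10OX. The log2 fold change was -1.29 (SE 0.10, limma adjusted p = 0.0243). Os01g0132000, which resembles the wound-induced inhibitor WIP1 of maize, had 164 and 115 FPKM in OsC3H10OX and 83.4 and 83.9 FPKM in NT, a log2 fold change of 0.77 (SE 0.20, limma adjusted p = 0.19). On chromosome 3, Os03g0823400, similar to a Bowman-Birk type trypsin inhibitor, had 158 and 61.2 FPKM in OsC3H10OX and 45.0 and 53.4 FPKM in NT. Its second OsC3H10OX library was only slightly higher than NT, and the log2 fold change of 1.04 (SE 0.48) was not called (limma adjusted p = 0.354).

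The other member that fell, Os12g0548401 (chromosome 12, 22193324 to 22193831), is annotated only as a proteinase inhibitor, without a family. It had 11.8 and 16.2 FPKM in OsC3H10OX and 46.5 and 48.0 FPKM in NT, with no overlap. Mean levels were 14.04 ± 3.12 FPKM in OsC3H10OX and 47.2 ± 1.11 FPKM in NT (SD, n = 2 each), with NT 3.36 times OsC3H10OX, and the log2 fold change was -1.68 (SE 0.18, limma adjusted p = 0.0382). A gene 8.9 kb away, Os12g0548700, is annotated as similar to MPI and so stands outside the membership words. It had 45.0 and 40.2 FPKM in OsC3H10OX and 83.3 and 95.5 FPKM in NT, also with all OsC3H10OX values below NT. Its log2 fold change of -1.0 (SE 0.12) just missed the threshold (limma adjusted p = 0.0502). The 3 calls were lost without NT replicate 1 or without NT replicate 2, where calls over all transcripts also fell or vanished. Log2 fold changes without NT replicate 1 and without NT replicate 2 were 3.31 and 3.43 for Os01g0615100. They were -1.31 and -1.27 for Os01g0127600 and -1.7 and -1.66 for Os12g0548401. No member was called without a filter on low values, at limma adjusted p of 0.0567, 0.0575 and 0.0985 in the same order of genes. The same held with a replicate block, at limma adjusted p of 0.0685, 0.0926 and 0.0963. Over all transcripts, calls also fell, from 453 to 126 without the filter and to 25 with the block. At an unadjusted p under 0.05 there were 11 members without the filter and 10 with the block.

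Cystatins, the inhibitors of papain-type cysteine proteases, were the family with the highest summed level, and none was called, with 1 at an unadjusted p under 0.05. Of 9 genes, 8 were tested and their log2 fold changes ranged from -0.35 to 0.47 with a median of -0.143. Os01g0803200, oryzacystatin-I, was the most abundant member, with 865 and 705 FPKM in OsC3H10OX and 542 and 571 FPKM in NT. Its groups did not overlap, at means of 785 ± 113 FPKM in OsC3H10OX and 557 ± 20.6 FPKM in NT (SD, n = 2 each), but the log2 fold change of 0.47 (SE 0.13) was not called (limma adjusted p = 0.216). A second transcript of this gene was higher in both OsC3H10OX libraries too, with 50.6 and 35.5 FPKM in OsC3H10OX and 25.4 and 23.6 FPKM in NT (limma adjusted p = 0.181). Os05g0494200, oryzacystatin-II, had 62.1 and 111 FPKM in OsC3H10OX and 88.0 and 107 FPKM in NT, with overlapping groups and a log2 fold change of -0.14 (SE 0.30, limma adjusted p = 0.841).

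Os05g0409300, a cysteine protease inhibitor by annotation, has 2 abundant transcripts. The first had 95.3 and 99.98 FPKM in OsC3H10OX and 108 and 125.3 FPKM in NT, and the second had 92.3 and 89.1 FPKM in OsC3H10OX and 79.6 and 68.0 FPKM in NT. The second therefore made up 49.2% and 47.1% of the gene's FPKM in OsC3H10OX and 42.5% and 35.2% in NT, and neither transcript passed the test (limma adjusted p = 0.533 and 0.261). Os01g0270100 also had a second transcript, at 30.1% and 38.7% of the gene's FPKM in OsC3H10OX and 42.6% and 23.5% in NT, with overlapping groups. Its kept transcript had 41.7 and 39.7 FPKM in OsC3H10OX and 37.2 and 47.8 FPKM in NT. Among the other cystatins, Os03g0429000 had 42.6 and 31.1 FPKM in OsC3H10OX and 45.1 and 50.4 FPKM in NT, and Os04g0350100 had 38.5 and 16.9 FPKM in OsC3H10OX and 20.1 and 24.2 FPKM in NT. None of these passed the test. The remaining 3 cystatin genes were low. Os01g0915401 had 0.816 and 1.18 FPKM in OsC3H10OX and 1.51 and 1.55 FPKM in NT, Os03g0172850 had 1.56 and 2.04 FPKM in OsC3H10OX and 2.30 and 2.33 FPKM in NT, and Os03g0210200, which was not tested, had 0.3197 and 0.416 FPKM in OsC3H10OX and 1.13 and 0.871 FPKM in NT. In each of them both OsC3H10OX libraries were below both NT libraries, as in 28.1% of all tested transcripts. Neither tested gene was called (limma adjusted p = 0.35 and 0.434). Inferred fragments of Os03g0210200 were only 5 and 6 in OsC3H10OX and 16 and 19 in NT.

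The Kunitz and Kazal families had 1 member each. Os09g0115500, with a Kunitz legume domain, had 78.4 and 124 FPKM in OsC3H10OX and 114 and 108 FPKM in NT, with the OsC3H10OX libraries on either side of NT (log2 fold change -0.09, SE 0.23, limma adjusted p = 0.856). Os12g0455000, with a Kazal domain, had 40.1 and 10.4 FPKM in OsC3H10OX and 11.7 and 12.8 FPKM in NT, and only the first OsC3H10OX library was above NT (log2 fold change 0.74, SE 0.64, limma adjusted p = 0.579). Serpins had low levels in these plants. Of 4 serpin genes only Os11g0222200 was tested, with 2.04 and 2.13 FPKM in OsC3H10OX and 2.70 and 2.51 FPKM in NT (log2 fold change -0.23, SE 0.12, limma adjusted p = 0.398), and Os01g0765400, Os05g0511800 and Os11g0230400 stayed under 1 FPKM in every library.

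The words also matched 6 genes that are not inhibitors in the usual sense. Propeptide domains are named after their effect on the protease they belong to, and 2 of 3 such genes were tested without a call: Os03g0813700 had 7.72 and 7.29 FPKM in OsC3H10OX and 6.11 and 7.35 FPKM in NT, and Os06g0116600 had 53.9 and 50.4 FPKM in OsC3H10OX and 56.8 and 63.4 FPKM in NT. The untested one, Os07g0438600, had 1.36 and 0.303 FPKM in OsC3H10OX and 0.576 and 0.201 FPKM in NT. The 3 genes annotated as protease inhibitor/seed storage/LTP family (Os03g0385100, Os03g0664400 and Os12g0473900), a name shared with lipid transfer proteins, had matching transcripts under 1 FPKM in every library, which were not tested. Most of the FPKM of Os03g0664400, between 94.2% and 98.9% in each library, came from another transcript, annotated as an expressed protein and so outside the membership words, with 8.03 and 7.35 FPKM in OsC3H10OX and 8.38 and 11.5 FPKM in NT (log2 fold change -0.32, SE 0.17, limma adjusted p = 0.4). Without these 6 genes, but with Os03g0661600 kept, 24 of 28 genes were tested, with the same calls and a median log2 fold change of 0.352.

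The OsC3H10OX libraries differed from each other in many inhibitor genes, which bears on most of the values above. The median absolute difference between the OsC3H10OX libraries on the log2 scale was 0.59 over the tested members and 0.17 over all tested transcripts, while that between the NT libraries was 0.12 over both. The first OsC3H10OX library had the higher value in 18 of 26 members (69.2%), against 53.7% of all tested transcripts. It also had the higher value in all 8 members that were 2-fold higher. Those 8 were picked by their OsC3H10OX values, and the share over all transcripts 2-fold higher was not computed. Ratios of the first to the second OsC3H10OX library ran between 0.558 and 4.93, and those of the first to the second NT library between 0.778 and 1.16. Set against the NT mean, 10 of 26 members (38.5%) were at least 2-fold higher in the first OsC3H10OX library and 5 (19.2%) in the second, where 4.27% and 2.76% of all tested transcripts were. A level at least 2-fold under the NT mean was found for 2 members in each OsC3H10OX library. In fits with an OsC3H10OX library left out, the lone library of that group is assumed to vary like the other group. Without OsC3H10OX replicate 1, the log2 fold change of Os01g0124100 was 0.32 and that of Os03g0823400 was 0.35, while that of Os01g0615100 was between 3.09 and 3.66 with any library left out.

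**Figure D5:**
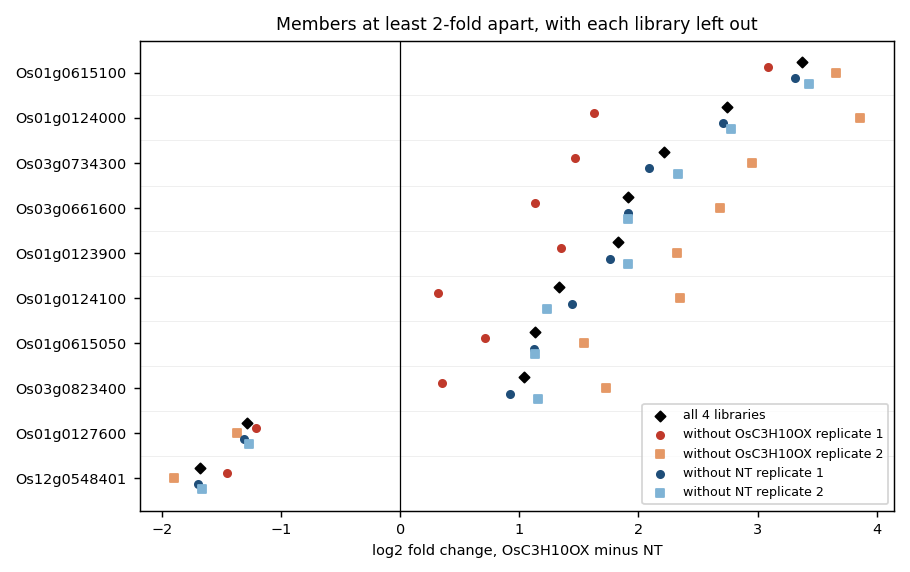
Log2 fold change of OsC3H10OX over NT (horizontal axis) for the members at least 2-fold apart, from all 4 libraries (diamonds) and with each library left out in turn. Values for Os01g0615100 stay between 3.09 and 3.66, whereas those for Os01g0124000 span 1.63 to 3.86 with the lowest value when OsC3H10OX replicate 1 is left out.

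Annotated proteases were called at a share near that of all transcripts. The list is wider than the targets named above, since it also holds aspartic proteases, serine carboxypeptidases, legumains and metacaspases. Of 185 annotated protease genes 144 were tested, none was called higher and 2 were called lower, 1.39% of those tested beside 1.49% of all tested transcripts. At an unadjusted p under 0.05, 10 were higher (6.94%) and 23 lower (16%), beside 8.35% and 9.36% of all tested transcripts. These counts hold 6 genes that share identical values in pairs, such as Os01g0347500 and Os01g0348000, and so count the same measurement more than once. Both calls were subtilases, subtilisin-type serine proteases, and lie close to each other on chromosome 4. Of 33 tested subtilases, 10 (30.3%) were lower and 1 (3.03%) was higher at an unadjusted limma p under 0.05, with both called genes among the lower. Os04g0127200 had 0.187 and 0.158 FPKM in OsC3H10OX and 9.81 and 9.74 FPKM in NT (log2 fold change -3.19, SE 0.11, limma adjusted p = 0.0044), and it passed the filter on low values through NT alone. Os04g0127300 had 0.384 and 1.16 FPKM in OsC3H10OX and 13.8 and 12.002 FPKM in NT (log2 fold change -2.99, SE 0.27, limma adjusted p = 0.0284). It would not have passed the filter without NT either, as OsC3H10OX replicate 1 was under 1 FPKM. Both genes were close to absent in OsC3H10OX and clearly expressed in NT. Their calls did not hold in every fit with a library left out. In those fits the log2 fold change was between -3.21 and -3.18 for Os04g0127200 and between -3.34 and -2.65 for Os04g0127300. The median log2 fold change was 0.122 for 26 tested genes found by words for cysteine proteases, -0.105 for 33 subtilases, -0.13 for 36 serine carboxypeptidases and -0.109 for 42 aspartic proteases. The cysteine protease words found mainly papain-type enzymes, the targets of cystatins, but also Os02g0644000, Os03g0391000 and Os01g0917200, which by annotation are of other types. The most abundant gene of this list, Os02g0469600, had 396 and 439.6 FPKM in OsC3H10OX and 345 and 347 FPKM in NT, without overlap but also without a call (log2 fold change 0.36, SE 0.10, limma adjusted p = 0.213). The aspartic protease Os05g0567100, an oryzasin, had 279 and 278 FPKM in OsC3H10OX and 277 and 271 FPKM in NT, nearly the same in all libraries. The most abundant genes of the other classes were not called either: the log2 fold change was 0.07 for the legumain Os01g0559600, with 88.9 and 173 FPKM in OsC3H10OX and 147 and 108 FPKM in NT, -0.06 for the metacaspase Os03g0388900, 0.09 for the serine carboxypeptidase Os06g0186400 and -0.12 for the subtilase Os02g0664300.

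Inhibitor-type annotations that lack the membership words were looked at as well, as 7 genes of which 4 were tested and none was called, with 1 higher and 1 lower at an unadjusted p under 0.05. Besides Os12g0548700, the well expressed one was Os12g0437800, also annotated as similar to MPI, with 116 and 53.0 FPKM in OsC3H10OX and 27.2 and 34.5 FPKM in NT. It followed the pattern of the 2-fold higher members, with both OsC3H10OX libraries above NT and the first the higher, at a log2 fold change of 1.38 (SE 0.42, limma adjusted p = 0.227). The study's list of genes more than 2-fold higher in OsC3H10OX also holds Os12g0437800. The WIP1-like gene Os09g0485600 had 5.74 and 4.86 FPKM in OsC3H10OX and 4.24 and 4.49 FPKM in NT, and Os09g0282100 had 2.37 and 1.44 FPKM in OsC3H10OX and 0.526 and 1.76 FPKM in NT. The untested genes, Os01g0859100, Os04g0526600 and Os07g0216600, were at 1.03 FPKM or less in every library. Genes annotated as similar to the same protein, MPI, thus lay on opposite sides of NT.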

How the data were processed

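Total RNA of whole plants was made into TruSeq libraries. Reads were cleaned by the authors with Trimmomatic 0.32 and aligned with TopHat against IRGSP-1.0 and its RAP-DB gene models. The authors deposited FPKM for every transcript and library, and the tool behind FPKM is not given in the sources used here. Their deposited log2 values kept the rank order of FPKM within each library and correlated with log2(FPKM + 1) at r = 0.9999. Sorted values differed between libraries by at most 0.00178, as quantile normalization would give. The normalization itself was not recomputed. Columns with the authors' own fold changes and p-values were not used. Sample descriptions of NT carry a cultivar name and an apparent year, which OsC3H10OX descriptions lack, so a batch and the genotype cannot be told apart.

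The deposited log2 values were fitted for OsC3H10OX against NT with limma 3.58.1 in R 4.3.3 (trend, BH adjustment over 30449 transcripts that reached 1 FPKM in 2 or more libraries; called at adjusted p under 0.05). Fragments per FPKM were inferred from even steps in low values. After length correction, 91.1% to 93.0% of low values were whole within 0.05.

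Members and lists were chosen with earlier results of these data known, and families were assigned by hand from the annotation after values had been seen. Named were members called or 2-fold apart, the 3 most abundant per family, neighbours within 50 kb, called proteases and the most abundant per class, other abundant transcripts of a member, and inhibitor annotations outside the words. Alternatives were other scales, filters, variance models, summed FPKM, a replicate block and each library left out. Gene names come from the table's annotation, and no sequence was analysed.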

Additional observations from a re-analysis of the deposited data

How the results depend on the processing

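Over all transcripts, 453 were called, and 126 without a filter, 287 with a minimum of 5 FPKM, 25 with a replicate block and between 0 and 1029 with a library left out (0 without NT replicate 2, where 2488 had an unadjusted p under 0.05). Calls among the members numbered 3, against 0 with no filter and 0 with the replicate block (11 and 10 at an unadjusted p under 0.05), and between 0 and 13 members were called with a library left out. Calls among proteases numbered 2, against 1 with log2(FPKM + 0.1), 1 with no filter, 3 with summed FPKM, 0 with the replicate block (28 at an unadjusted p under 0.05) and 0 to 5 with a library left out. Replicate numbers gave no pairing (correlation of deviations -0.0258). The median log2 fold change of the members was between 0.036 and 0.447 with a library left out. Signs turned without OsC3H10OX replicate 1 for Os01g0124200 (-0.24 to 1.61 over the libraries left out), Os12g0455000 (-0.19 to 1.67), Os05g0494200 (-0.54 to 0.27) and Os09g0115500 (-0.39 to 0.21), and without OsC3H10OX replicate 2 for Os01g0124401 (-0.87 to 0.31). Among proteases, they turned for the legumain Os01g0559600 (0.07, against -0.02 with no normalization, -0.02 with log2(FPKM + 0.1), -0.25 with summed FPKM and -0.40 to 0.55 with a library left out) and for Os06g0186400 (-0.07 to 0.25). None of these genes was called in the fit of all 4 libraries. The causes were not tested. Depth limits mainly the 8 untested members, whose levels were about 1 FPKM or less.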
